A study of Mus musculus with 6 samples.

Results

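The genes described here are those of the transforming growth factor beta (TGF-beta) and bone morphogenetic protein (BMP) pathways, 43 genes chosen by symbol for their textbook roles. The count table of 23399 genes had a row for 41 of the 43, and 37 had enough counts to be tested. The cells were CMT93, an established mouse colorectal carcinoma line of wild-type genotype by its label, grown as spheroids on soft agar with 0.25% Matrigel. The spheroids were compared in 2 groups of 3 libraries each. One group received 200 µM palmitate, a saturated fatty acid, as its sodium salt dissolved in ethanol and bound to bovine serum albumin (BSA), and the vehicle group received ethanol with BSA and no palmitate. Both had 1 week of their treatment in monolayer and then 5 days as spheroids before total RNA was isolated, from which polyadenylated RNA was purified for the libraries. All libraries come from a single cell line. Since no label tells whether replicates were grown apart, the p-values rest on a spread among libraries that may be technical only.

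Most ligands of this superfamily, though not all, bring together a type II and a type I receptor, both serine/threonine kinases. The type I receptor then phosphorylates a receptor-regulated SMAD. TGF-beta and activin ligands act mainly through SMAD2 and SMAD3, and BMP ligands through SMAD1, SMAD5 and SMAD9. Either kind pairs with SMAD4 and enters the nucleus, where BMP signals switch on the ID genes, and inhibitors such as SMAD7 and the SMURF ubiquitin ligases close the loop. In the colon, TGF-beta restrains epithelial growth, BMPs favour differentiation over stem cell renewal, and colorectal carcinomas often carry mutations in some of these genes, among them TGFBR2 and SMAD4.

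The vehicle libraries held 18898896 to 21851987 counts and the palmitate libraries 22516639 to 22852940, and the depths of the groups did not overlap. Epithelial identity was plain in all of them, with the 7 epithelial markers (Epcam, Cdh1, Krt8, Krt18, Krt19, Cldn7 and Vil1) summing to 7411 to 7486 counts-per-million (CPM) with vehicle and 6795 to 6892 CPM with palmitate. Several of the genes below are also made by fibroblasts. Of 8 fibroblast markers 5 had a row, and these summed to 1.34 to 2.05 CPM with vehicle and 0.976 to 1.14 CPM with palmitate, with 4 of the 5 under 1 CPM on average and Dcn, Pdgfra and Postn at 0 in every vehicle library. In the palmitate libraries Dcn, Pdgfra and Postn had 0 to 3 counts each. The 4 immune markers with a row summed to 0.910 to 1.21 CPM with vehicle and 0.528 to 0.716 CPM with palmitate. The 6 endothelial markers summed to 35.9 to 38.0 and 38.6 to 41.2 CPM, nearly all of it Esam (33.3 and 37.0 CPM), while Pecam1, Kdr, Vwf and Tek were under 1 CPM on average in both groups. The epithelial, fibroblast and immune sums were thus lower with palmitate and the endothelial sum higher, the last through Esam. Krt8 fell from 1702 to 1438 CPM and Krt18 from 1445 to 1079 CPM, while Krt19 and Cldn7 rose. In the immune sum Ptprc fell from 0.836 to 0.266 CPM, while Csf1r, Cd79a and Lyz2 were slightly higher on average. In the fibroblast sum Col1a1 and Col1a2 were lower on average, while Dcn, Pdgfra and Postn were slightly higher. The endothelial marker Cdh5 fell from 2.21 to 1.45 CPM (log2 fold change -0.60, edgeR adjusted p = 0.00599). The fibroblast marker Col1a1 fell from 1.45 to 0.710 CPM. The part of these sums in the results was not tested. In RNA from whole spheroids, fewer cells that make a message and less message per cell cannot be told apart.

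With palmitate, spheroids held more message for the ligands Inhba, Bmp2, Gdf15 and Tgfb3, for the activin antagonist Fst, and for the targets Tgfbi, Id1 and Id3. They held less for the type I receptors Tgfbr1 and Acvr1b and for Skil, an inhibitor and TGF-beta target, and slightly less for Smad3. Of 37 tested genes 19 were called higher and 7 lower with edgeR's two-sided quasi-likelihood test and an adjusted p under 0.05, that is 51.4% and 18.9%, where 27.4% of all 14987 tested genes were called higher and 25.4% lower. The median log2 fold change was 0.12 over the 37 genes and 0.00 over all tested genes. Of the 37 genes 7 were called higher with a log2 fold change of at least 0.5 and 1, Ltbp2, was called lower by as much, though it passed the count filter through the vehicle libraries alone, and 4.83% and 9.27% of all tested genes met those marks. All palmitate libraries were above all vehicle libraries for 20 of the 37 genes and below them for 9, as was so for 29.7% and 28.1% of all tested genes. Against a minimum change of 1.2-fold (glmTreat), 8 of the 37 genes were called higher and 2 (Tgfbr1 and Ltbp2) lower, as were 6.46% and 8.72% of all tested genes. In the authors' deposited table, at a q-value under 0.05, 14 of the 41 genes were higher and 6 lower, where 13.3% and 10.9% of its 23399 genes were so. Of those 23399 genes only 14987 passed edgeR's count filter, against 37 of the 41. The shares in the authors' deposited table are thus not like those above. For the 37 tested genes, the log2 fold changes of the authors' deposited table differed from those of edgeR by at most 0.0155. The calls were the same for 31, and Acvr1, Bmp4, Id2, Inhbb, Smad2 and Smad4 were called by edgeR alone, with q-values from 0.0506 for Bmp4 to 0.231 for Id2 in the authors' deposited table. Exons of Tgfb2, Tgfb3, Bmp4, Ltbp2, Ltbp3, Fst, Acvr2a and Bmpr1a overlap a gene on the other strand, so the values of these 8 are uncertain if reads were counted without strand. Exons of Tgfbr3, Smad5 and Smurf2 overlap a gene on the same strand, by 297, 100 and 58 bases. The effect of that on their counts was not tested.

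**Figure D1:**
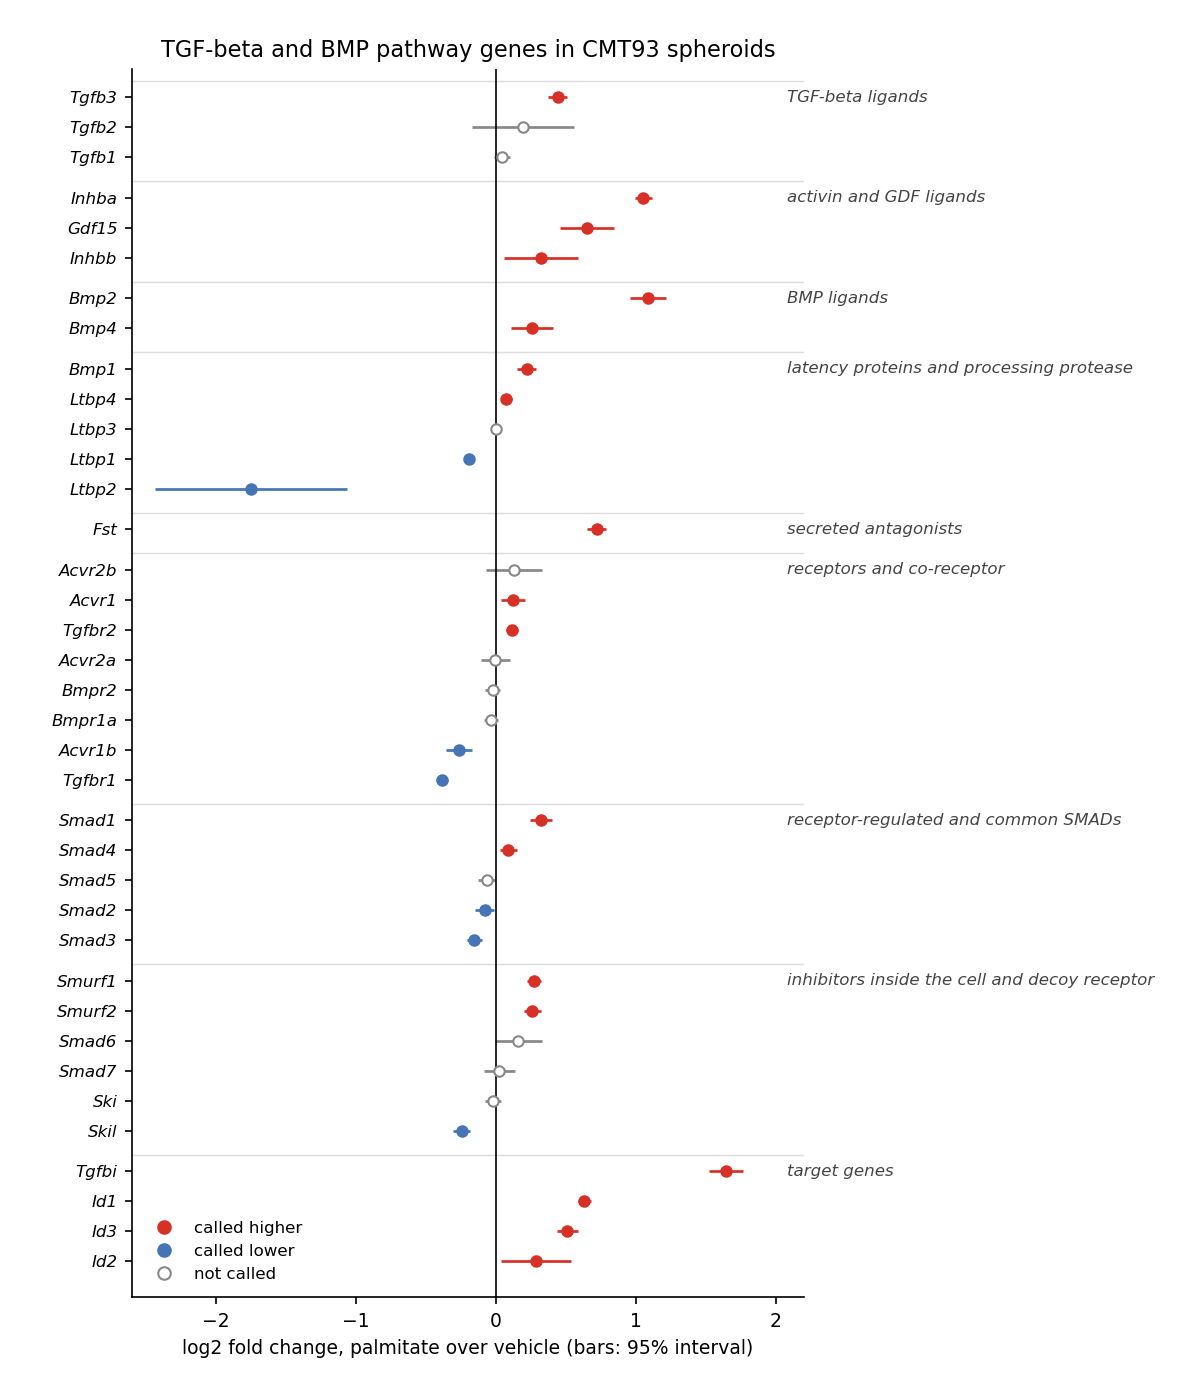
Each point is the log2 fold change of a tested gene, palmitate over vehicle, with its 95% interval, grouped by role; filled points were called at an adjusted p under 0.05 and open points were not. The ligand and target genes lie mostly to the right of 0, from Tgfbi at 1.64 downwards, while Tgfbr1 (-0.39), Acvr1b (-0.27), Skil (-0.25) and Ltbp2 (-1.75) lie to the left. Ltbp2 had few counts and passed the count filter through the vehicle libraries alone, so its call carries little weight.

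Among the 3 TGF-beta ligand genes, only Tgfb3 was called. Tgfb1 encodes the ligand most studied in carcinoma. It measured 90.0, 85.5 and 86.8 CPM in the vehicle libraries and 88.4, 89.5 and 91.9 CPM in the palmitate libraries. These ranges overlapped, and the log2 fold change was 0.04 with a 95% interval of -0.02 to 0.10 (edgeR adjusted p = 0.234). Tgfb3, which encodes a ligand of the same receptors, stood at 59.6, 61.3 and 57.3 CPM with vehicle and at 81.9, 76.6 and 83.7 CPM with palmitate. All 3 palmitate libraries were above all 3 vehicle libraries (log2 fold change 0.44, SE 0.034, edgeR adjusted p = 5.45e-20). Tgfb2 was low, at 1.83 ± 0.256 CPM with vehicle and 2.10 ± 0.106 CPM with palmitate (SD, n = 3 libraries each), and its interval of -0.17 to 0.56 left a modest change not detectable at this depth.

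All 3 genes of activin and growth differentiation factor ligands were called higher, where 27.4% of all tested genes were. Inhba (ENSMUSG00000041324.15) encodes the beta A subunit that dimerises to activin A. It measured 54.5, 54.4 and 58.6 CPM with vehicle and 115.8, 115.4 and 116.4 CPM with palmitate. The palmitate libraries were nearly alike and lay far above the vehicle libraries, a 2.07-fold rise (log2 fold change 1.05, SE 0.031, edgeR adjusted p = 1.32e-47). Gdf15 (ENSMUSG00000038508.8), a distant family member that circulates as a stress hormone, measured 5.42, 5.91 and 6.14 CPM with vehicle and 8.41, 10.6 and 8.54 CPM with palmitate. Palmitate replicate 2 was higher than the other two, and the groups did not overlap (log2 fold change 0.65, SE 0.098, edgeR adjusted p = 1.97e-08). Inhbb, the beta B subunit gene, was low and rose from 3.52 ± 0.610 to 4.38 ± 0.206 CPM (SD, n = 3 libraries each, log2 fold change 0.32, edgeR adjusted p = 0.0342). That call was lost with DESeq2 (adjusted p = 0.197) and when vehicle replicate 2, palmitate replicate 2 or palmitate replicate 3 was left out (edgeR adjusted p = 0.313, 0.0976 and 0.0688), and without vehicle replicate 2 the log2 fold change was 0.18.

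Both tested BMP ligand genes were called higher, where 27.4% of all tested genes were. Bmp2 (ENSMUSG00000027358.7), a ligand of differentiated colon epithelium, measured 9.64, 11.7 and 12.2 CPM with vehicle and 24.4, 23.7 and 23.7 CPM with palmitate. Every palmitate library was well above every vehicle library, a 2.13-fold rise (log2 fold change 1.09, SE 0.065, edgeR adjusted p = 1.56e-26). Bmp4, its close relative, rose from 10.8 ± 0.709 to 12.9 ± 0.315 CPM (SD, n = 3 libraries each, log2 fold change 0.26, edgeR adjusted p = 0.00246). Bmp7, a BMP ligand prominent in kidney, had 0 to 4 counts in each library and was not tested.

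Outside the cell, TGF-beta is held latent by binding proteins, and activins and BMPs are held by soluble antagonists. Ltbp3 encodes a latent TGF-beta binding protein and was the most abundant by CPM of the 5 genes in this role. It measured 480.8, 478.8 and 476.0 CPM with vehicle and 481.9, 481.8 and 472.2 CPM with palmitate, so the groups overlapped, with a log2 fold change of 0.00 and an interval of -0.03 to 0.03. Ltbp1 fell from 312 ± 2.91 to 273 ± 1.14 CPM (log2 fold change -0.19) and Ltbp4 rose from 303 ± 4.31 to 319 ± 8.28 CPM (0.07), SDs over 3 libraries each. Ltbp2, a relative tied to elastic fibres, had 18, 27 and 15 counts with vehicle and 6, 8 and 5 with palmitate. It was thus under 1 CPM on average in both groups. It passed the count filter only through the vehicle libraries, where it was high, so its fitted log2 fold change of -1.75 (SE 0.344, edgeR) is a description and its call carries little weight. Bmp1, which despite its name encodes a metalloprotease that processes procollagen and also cleaves chordin, rose from 60.6 ± 2.56 to 70.4 ± 0.905 CPM (SD, n = 3 libraries each, log2 fold change 0.22). Fst (ENSMUSG00000021765.10) encodes follistatin, which binds activins and neutralises them. It measured 47.8, 49.9 and 50.2 CPM with vehicle and 82.2, 79.8 and 81.9 CPM with palmitate. The groups were far apart relative to their spread, a 1.65-fold rise (log2 fold change 0.72, SE 0.034, edgeR adjusted p = 4.76e-33). Nog, which encodes the BMP antagonist noggin, was not analysed here.

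Receptor genes were called in both directions. Of 8 tested receptor genes 2 were higher, 2 lower and 4 not called, with a median log2 fold change of -0.01. That was 25% higher and 25% lower, near the 27.4% and 25.4% of all tested genes. Tgfbr1 (ENSMUSG00000007613.16), the type I receptor for TGF-beta, measured 208.5, 214.5 and 207.8 CPM with vehicle and 161.4, 162.6 and 158.0 CPM with palmitate. No library of one group reached the other, and the level was 1.31-fold lower with palmitate (log2 fold change -0.39, SE 0.022, edgeR adjusted p = 2.15e-28). Acvr1b, the type I receptor for activin, fell from 34.5 ± 0.977 to 28.7 ± 0.591 CPM (SD, n = 3 libraries each, log2 fold change -0.27, edgeR adjusted p = 8.11e-07). Tgfbr2, the type II partner of Tgfbr1, went the other way, with 176.1, 171.6 and 169.1 CPM with vehicle and 182.2, 187.4 and 189.3 CPM with palmitate. The groups did not overlap, but the rise was small (log2 fold change 0.11, SE 0.022, edgeR adjusted p = 7.67e-06).

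Among receptors for BMPs, Bmpr1a, a type I receptor, measured 122.7, 120.3 and 122.9 CPM with vehicle and 118.5, 117.9 and 119.9 CPM with palmitate. The palmitate libraries lay just under the vehicle libraries, and the difference was not called (log2 fold change -0.04, interval -0.09 to 0.01, edgeR adjusted p = 0.217). Bmpr2, a type II receptor, had a log2 fold change of -0.02 (interval -0.08 to 0.03). Acvr1, a type I receptor for BMPs, was called higher by 0.12 on the log2 scale (edgeR adjusted p = 0.0111), and that call was lost with DESeq2 (adjusted p = 0.100) and without palmitate replicate 3 (edgeR adjusted p = 0.118). The activin type II receptor genes Acvr2a and Acvr2b had log2 fold changes of -0.0044 and 0.13, with intervals of -0.11 to 0.10 and -0.07 to 0.33, and were not called. Tgfbr3, the co-receptor betaglycan, had 7 to 18 counts per library and was not tested.

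**Figure D2:**
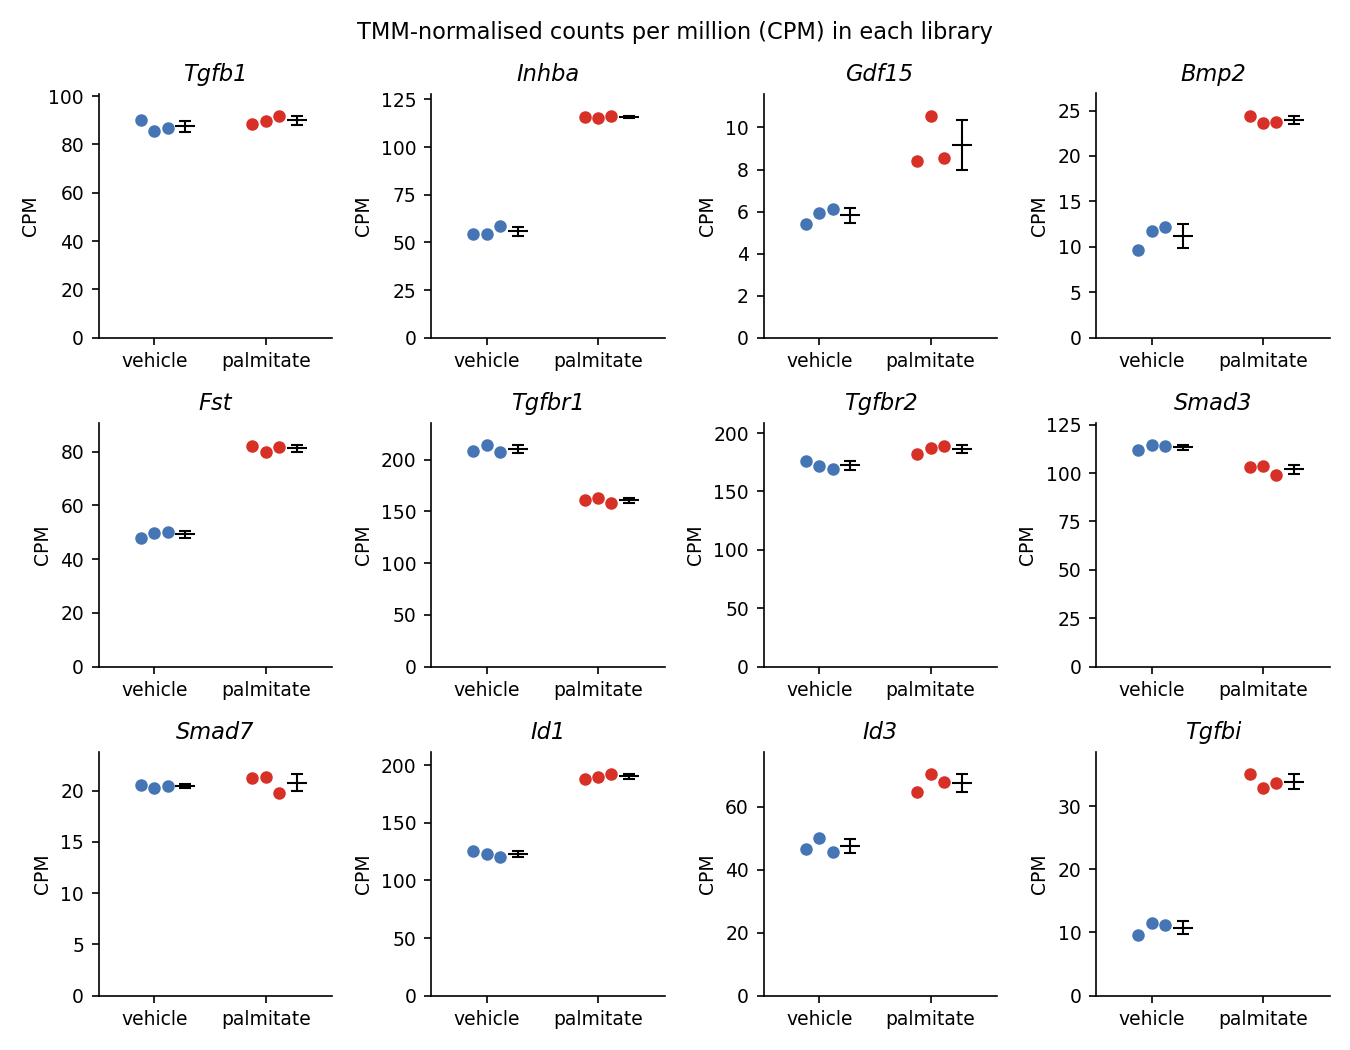
Each panel gives the TMM-normalised CPM of a gene in the 3 vehicle (blue) and 3 palmitate (red) libraries, with the mean and SD as a bar beside them and an axis from 0. The groups overlap for Tgfb1 and Smad7 and are apart for the other 10 genes, from a small step in Smad3 to 3.13-fold in Tgfbi (10.8 to 33.8 CPM).

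The SMAD genes were called in both directions, by 0.32 or less on the log2 scale. Smad1, a BMP-regulated SMAD, rose from 37.5 ± 0.306 to 46.9 ± 0.827 CPM (SD, n = 3 libraries each, log2 fold change 0.32, edgeR adjusted p = 7.90e-11), whereas Smad5, which shares its role, had a log2 fold change of -0.07 and was not called (edgeR adjusted p = 0.0618), though median-of-ratios scaling gave an adjusted p of 0.0492. Smad3 fell: it measured 112.0, 114.5 and 113.8 CPM with vehicle and 102.9, 103.6 and 99.3 CPM with palmitate. The groups were apart, by a log2 fold change of -0.15 (SE 0.027, edgeR adjusted p = 7.64e-07). Smad2 measured 61.6, 62.5 and 63.5 CPM with vehicle and 59.7, 58.8 and 58.7 CPM with palmitate. It was called lower by a small amount (log2 fold change -0.08, edgeR adjusted p = 0.0382). The call was lost with no count filter (edgeR adjusted p = 0.102), with DESeq2 (0.217) and when any library but vehicle replicate 1 was left out (edgeR adjusted p from 0.0522 to 0.129). Smad4, the shared partner, measured 74.6, 75.6 and 76.2 CPM with vehicle and 78.4, 84.0 and 78.4 CPM with palmitate. One palmitate library stood above the others, the log2 fold change was 0.09 (edgeR adjusted p = 0.0138), and the call was lost with DESeq2 (adjusted p = 0.0974) and without vehicle replicate 1 or palmitate replicate 2 (edgeR adjusted p = 0.0506 and 0.162). Without palmitate replicate 2 that log2 fold change was 0.06. Smad9 had 8 to 12 counts per library and was not tested.

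Of the inhibitors inside the cell, the 2 SMURF ubiquitin ligase genes, whose products mark SMADs and receptors for destruction, both rose. Smurf1 measured 117.8, 111.2 and 120.6 CPM with vehicle and 139.4, 139.7 and 142.0 CPM with palmitate. No vehicle library reached the palmitate range (log2 fold change 0.27, SE 0.026, edgeR adjusted p = 1.50e-15). Smurf2 rose from 75.1 ± 0.121 to 89.9 ± 1.48 CPM (SD, n = 3 libraries each, log2 fold change 0.26, edgeR adjusted p = 4.54e-12). The inhibitory SMAD gene Smad7, which TGF-beta itself switches on, measured 20.6, 20.3 and 20.5 CPM with vehicle and 21.2, 21.4 and 19.8 CPM with palmitate. These ranges overlapped, and the log2 fold change was 0.02 with an interval of -0.09 to 0.14 (edgeR adjusted p = 0.743). Smad6, the BMP-induced inhibitor, had a log2 fold change of 0.16 (interval -0.01 to 0.33, edgeR adjusted p = 0.108). Skil, a SMAD corepressor gene that is also a TGF-beta target, fell from 110 ± 4.80 to 92.4 ± 2.59 CPM (SD, n = 3 libraries each, log2 fold change -0.25, edgeR adjusted p = 1.00e-11), while its relative Ski was not called (log2 fold change -0.02, interval -0.08 to 0.04). Bambi, which encodes a decoy receptor without a kinase, had 2 to 11 counts per library and was not tested.

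The 4 tested genes listed as targets were all called higher, where 27.4% of all tested genes were. Skil, Smad7 and Smad6, which these signals also switch on, were listed with the inhibitors. Of these, Skil fell and Smad7 and Smad6 were not called. Tgfbi (ENSMUSG00000035493.11), a secreted matrix protein named for its induction by TGF-beta, had the greatest rise of the 37 genes. It measured 9.58, 11.5 and 11.2 CPM with vehicle and 35.1, 32.8 and 33.6 CPM with palmitate. The lowest palmitate library held more than any vehicle library by a wide margin, a 3.13-fold rise (log2 fold change 1.64, SE 0.060, edgeR adjusted p = 5.91e-41). The ID proteins bind basic helix-loop-helix transcription factors and keep them from DNA, and their genes are classic BMP targets. Id1 (ENSMUSG00000042745.10) measured 125.6, 122.8 and 119.9 CPM with vehicle and 188.0, 189.8 and 192.5 CPM with palmitate. That was a 1.55-fold rise with no overlap (log2 fold change 0.63, SE 0.023, edgeR adjusted p = 1.24e-40). Id3 (ENSMUSG00000007872.4) measured 46.6, 50.0 and 45.7 CPM with vehicle and 64.5, 70.3 and 67.8 CPM with palmitate. Every palmitate library was above every vehicle library (log2 fold change 0.51, SE 0.037, edgeR adjusted p = 3.31e-21). Id2 was low, at 4.53, 3.73 and 3.78 CPM with vehicle and 4.61, 4.70 and 5.28 CPM with palmitate. The highest vehicle library nearly met the lowest palmitate library (log2 fold change 0.29, edgeR adjusted p = 0.0462). The call for Id2 was lost with no count filter (edgeR adjusted p = 0.0508), DESeq2 (0.227), limma-voom (0.0544), after thinning to equal depth (edgeR, 0.127), and when replicate 2 or 3 of either group was left out (edgeR adjusted p from 0.0534 to 0.179). Id4 was not analysed here.

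Promoters of genes that rose are shown with that of Tgfbr1, which fell, so that the DNA near their starts can be read beside the values. SMAD3 and SMAD4 bind DNA at the short word CAGAC, read on either strand, and SMADs also bind GC-rich sites such as GGCGCC. The sequences are the 250 bases before the annotated start, from RefSeq on build GRCm38.p6, an earlier build than the one the counts were made on, with matches to either word, on either strand, in capitals. Positions are chr13:56609336-56609585 for Tgfbi, chr4:136143572-136143821 for Id3, chr13:16011601-16011850 for Inhba and chr4:47352972-47353221 for the more upstream of the 2 Tgfbr1 starts listed, all on the plus strand. Windows for Id1, Bmp2, Fst and Tgfb3 were not used here.
Tgfbi: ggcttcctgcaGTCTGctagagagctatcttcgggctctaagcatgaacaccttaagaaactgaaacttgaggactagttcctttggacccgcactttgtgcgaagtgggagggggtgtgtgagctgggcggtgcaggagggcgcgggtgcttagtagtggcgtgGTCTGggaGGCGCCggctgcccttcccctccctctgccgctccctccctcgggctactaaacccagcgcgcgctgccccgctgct
Id3: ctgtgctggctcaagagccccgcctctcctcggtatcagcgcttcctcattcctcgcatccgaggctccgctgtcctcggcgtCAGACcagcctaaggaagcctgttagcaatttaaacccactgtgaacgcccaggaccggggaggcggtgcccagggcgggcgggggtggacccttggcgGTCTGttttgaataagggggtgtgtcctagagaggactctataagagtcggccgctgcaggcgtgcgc
Inhba: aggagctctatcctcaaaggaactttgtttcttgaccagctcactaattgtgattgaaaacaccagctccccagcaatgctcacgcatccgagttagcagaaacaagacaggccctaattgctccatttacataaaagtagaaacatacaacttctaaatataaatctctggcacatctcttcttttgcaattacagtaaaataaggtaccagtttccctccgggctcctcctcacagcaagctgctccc
Tgfbr1: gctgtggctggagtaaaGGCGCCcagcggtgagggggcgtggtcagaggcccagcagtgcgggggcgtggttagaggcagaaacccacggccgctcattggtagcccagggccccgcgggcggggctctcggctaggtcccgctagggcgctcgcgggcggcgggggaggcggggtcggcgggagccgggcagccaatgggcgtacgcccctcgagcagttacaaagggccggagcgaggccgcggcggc
The Tgfbi window holds 2 CAGAC matches, 239 and 85 bases before the start, and 1 GGCGCC match 77 bases before it. The Id3 window holds 2 CAGAC matches, 167 and 68 bases before the start. The Tgfbr1 window shown holds 1 GGCGCC match, 233 bases before the start, and the window of the other Tgfbr1 start, not shown, holds 1 CAGAC match 203 bases before it. The Inhba window, with a GC content of 43.2%, holds no match to either. Taking the window that the RefSeq table lists first for each gene, here and over all promoters, CAGAC on either strand was in 12 of the 29 pathway genes for which one was used (41.4%), and in 42.1% of 27025 mouse promoters of the same length, 1 a gene. GGCGCC, which reads the same on both strands, was in 8 of the 29 (27.6%), against 9.5% of those promoters. This word is all G and C, and the promoters compared were not matched for GC content. In the 8 windows that hold it, GC content ran from 62.4% (Tgfbi) to 87.6% (Ski). The part of GC content in the difference was not tested. Counting any listed window of a gene, which has no such background here, 14 of the 29 hold CAGAC and 10 hold GGCGCC. Smad5 and Tgfbr1 hold CAGAC only in windows not listed first, and so do Ltbp4 and Smad5 for GGCGCC. The word GTCTAGAC, also searched, was in 0 of the 29 and in 0.2% of all. These matches describe letters and do not show binding.

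Levels of different genes were set beside each other per kilobase of exon. Id1 was the highest of the 41 genes in both groups, at 106 ± 2.43 CPM per kilobase with vehicle and 164 ± 1.96 with palmitate (SD, n = 3 libraries each). Ltbp3 and Ltbp4 followed, at 52.8 ± 0.266 and 46.9 ± 0.667 with vehicle, in ranges that did not overlap. Among ligands, Tgfb3 and Tgfb1 stood level with vehicle, at 17.6 ± 0.599 and 17.3 ± 0.458 CPM per kilobase, and apart with palmitate, at 23.9 ± 1.09 and 17.8 ± 0.352. Inhba went from 8.73 ± 0.374 to 18.1 ± 0.0799 CPM per kilobase and so came to the level of Tgfb1, whose palmitate range of 17.5 to 18.2 it overlaps. Bmp2 lay below Bmp4 with vehicle (3.15 ± 0.385 and 4.79 ± 0.316) and above it with palmitate (6.73 ± 0.123 and 5.73 ± 0.140). Ltbp2, Tgfbr3, Smad9, Bambi and Bmp7 were lowest, at 0.024 to 0.117 CPM per kilobase with vehicle. Lengths were those of all annotated exons of a gene merged, from an earlier annotation, and a gene that uses few of its exons is understated.

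**Figure D3:**
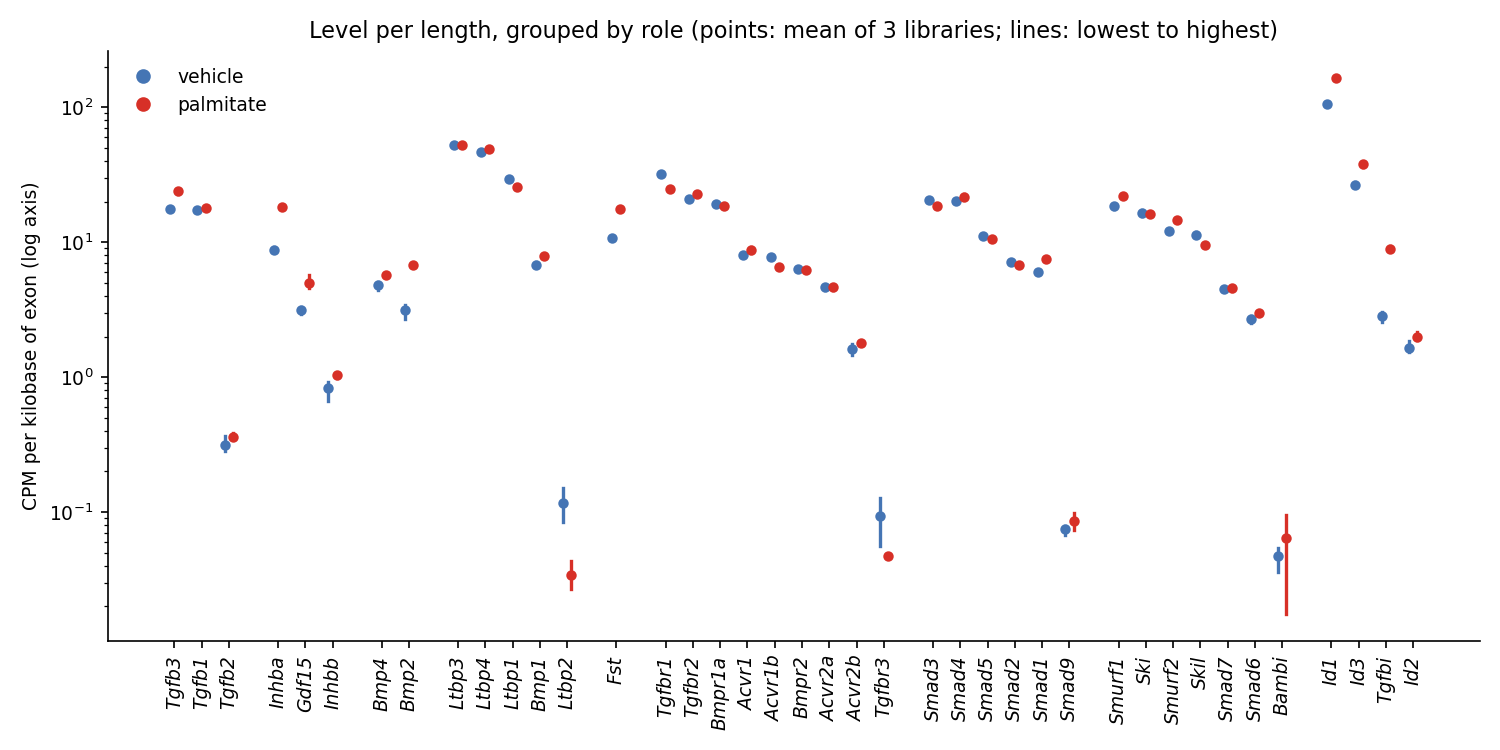
CPM per kilobase of exon on a log axis for each gene with counts in every library, grouped by role; points are the mean of 3 libraries and lines run from the lowest to the highest. Id1 is highest at 106 and 164, Tgfb3 and Tgfb1 coincide with vehicle and part with palmitate, and Bmp2 passes Bmp4.

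Ratios within a library do not depend on how libraries are scaled to each other. These 6 ratios were chosen after the values were seen, so they are given as descriptions, and 3 libraries against 3 could not reach an exact permutation p under 0.10. On CPM per kilobase, the ratio of Inhba to Fst, activin subunit to antagonist, was 0.819, 0.783 and 0.838 with vehicle and 1.01, 1.04 and 1.02 with palmitate. The groups did not overlap, and Inhba stood higher relative to Fst with palmitate. Tgfbr1 to Tgfbr2 was 1.53 ± 0.0420 with vehicle and 1.08 ± 0.0326 with palmitate (SD, n = 3 libraries each). Tgfb3 to Tgfb1 was 1.01 ± 0.0483 and 1.34 ± 0.0558, and Bmp2 to Bmp4 was 0.660 ± 0.107 and 1.18 ± 0.0356. The sum of the BMP-regulated Smad1 and Smad5 over that of Smad2 and Smad3 was 0.621 ± 0.0121 with vehicle and 0.722 ± 0.0121 with palmitate. In these 5 ratios the groups were apart. Id3 to Id1 was 0.250 ± 0.0120 and 0.230 ± 0.00903, with the lowest vehicle and the highest palmitate library both at 0.240.

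**Figure D4:**
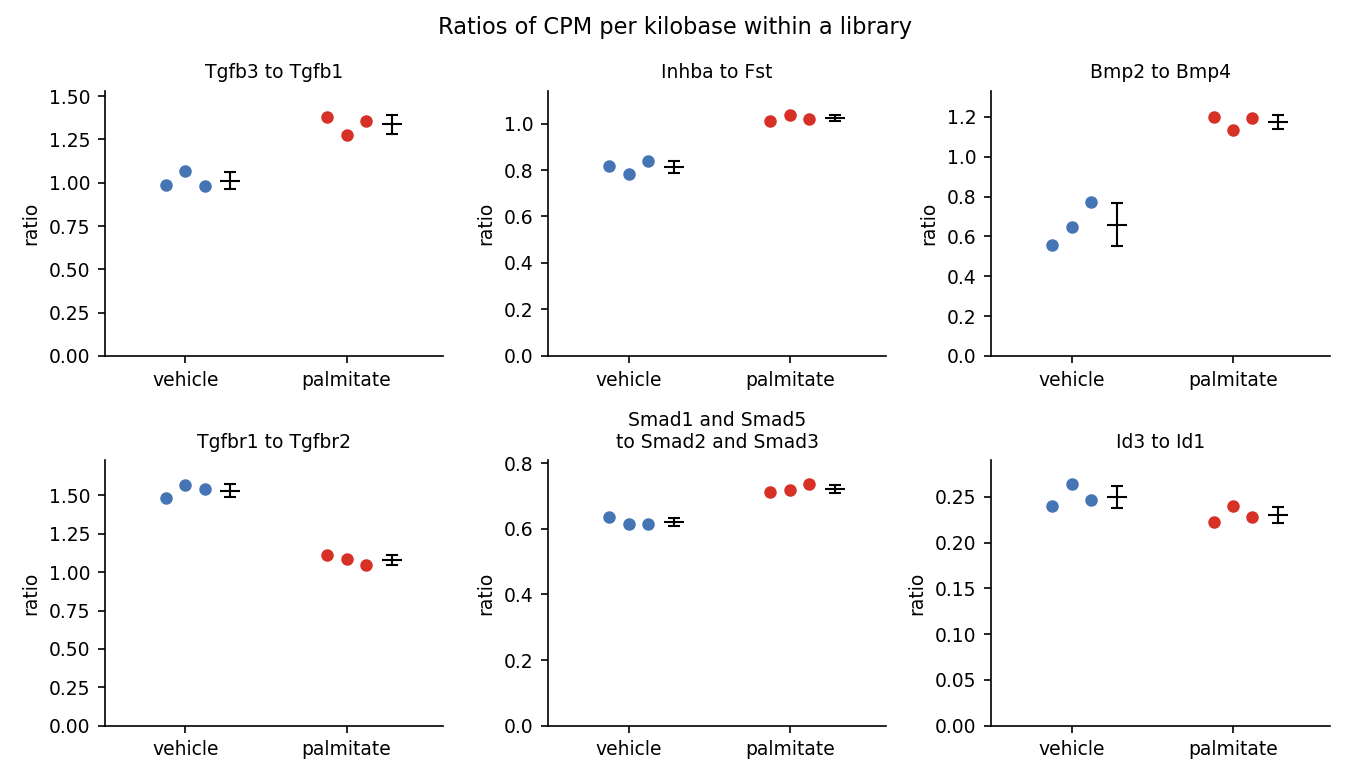
Ratios of CPM per kilobase in each of the 3 vehicle (blue) and 3 palmitate (red) libraries, with mean and SD beside them and axes from 0. Tgfbr1 to Tgfbr2 is lower with palmitate (1.08 against 1.53), Id3 to Id1 differs little, and the other 4 ratios are higher with palmitate.

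Other pathway genes, 112 chosen by textbook role, were called in both directions. Of these 79 had a row and 69 were tested, and 28 were called higher and 16 lower (40.6% and 23.2%, beside 27.4% and 25.4% of all tested genes), with a median log2 fold change of 0.04. The share called lower was thus near that of all genes. Among 6 further ligands 2 were higher and 3 lower, the latter 1 with DESeq2 or without vehicle replicate 3. Gdf11, a relative of myostatin, rose from 5.61 ± 0.163 to 11.0 ± 0.554 CPM and Bmp6 from 1.13 ± 0.436 to 3.85 ± 0.407 CPM, while Bmp3, which opposes other BMPs, fell from 6.87 ± 1.08 to 5.05 ± 0.518 CPM (SD, n = 3 libraries each). The 3 further receptor or co-receptor genes tested, Eng, Rgma and Rgmb, had edgeR adjusted p of 0.934, 0.597 and 0.437. Among 14 antagonists and extracellular regulators 7 were higher and 4 lower. Itgb8, whose integrin releases TGF-beta from latency, had 2, 9 and 7 counts with vehicle and 36, 52 and 46 with palmitate. It was low in both groups and passed the count filter only through the palmitate libraries, so its fitted log2 fold change of 2.76 (SE 0.297, edgeR) is a description. The BMP antagonist gene Nbl1 rose (0.47), and Htra1, a secreted protease, fell (-0.48).

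Among 21 other intracellular regulators 6 were higher and 5 lower, all by less than 0.5 on the log2 scale. These shares of 28.6% and 23.8% were near the 27.4% and 25.4% of all tested genes. The SMAD phosphatase gene Ppm1a rose by 0.32, Fkbp1a, whose product binds type I receptors, rose by 0.17, and Nedd4l, a ubiquitin ligase gene, had a log2 fold change of -0.32 and was called lower. The count of 5 lower was 2 with DESeq2 or no count filter. It was also 2 when vehicle replicate 1, vehicle replicate 3 or palmitate replicate 2 was left out, and 3 when palmitate replicate 1 or 3 was. Further targets were called in both directions. Of 17 other TGF-beta and activin targets 8 were higher, 3 lower and 6 not called, with a median log2 fold change of -0.01. The 3 lower include Col1a1 (log2 fold change -1.03), which was also used above as a fibroblast marker. Klf11, an early response repressor, rose from 14.6 ± 0.302 to 25.5 ± 1.12 CPM and the basement membrane gene Col4a2 from 174 ± 2.62 to 235 ± 5.12 CPM, whereas the matrix gene Fn1 fell from 3349 ± 8.85 to 2704 ± 41.9 CPM (SD, n = 3 libraries each). Of 8 other BMP targets 5 were higher, 1 lower and 2 not called. The homeobox genes Msx1 and Dlx3 rose by 1.00 and 0.59 on the log2 scale, while Atoh8, a helix-loop-helix factor, fell from 33.1 ± 1.96 to 14.5 ± 1.22 CPM (SD, n = 3 libraries each, log2 fold change -1.19, edgeR). With DESeq2 3 of the BMP targets were called higher.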

How the data were processed

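Gene counts of 3 vehicle and 3 palmitate libraries were analysed. The kit was stranded and selected poly(A) RNA, per the labels' protocols, and the sources used here do not say if counting was by strand. The submitters' processing notes name STAR 2.6.1, HTSeq and DESeq2 1.34.0, and build mm39. The deposited table holds raw counts per gene. The authors' deposited gene table gives log2 fold changes with p-values and q-values. It also has a score, which the authors made from p and the sign of the fold change and which was not used further. Exons of 8 of the genes (Tgfb2, Tgfb3, Bmp4, Ltbp2, Ltbp3, Fst, Acvr2a and Bmpr1a) overlap a gene on the other strand in Gencode M21, so these values are uncertain if strand was ignored. Those of Tgfbr3, Smad5 and Smurf2 overlap a gene on the same strand.

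Counts were tested over all genes in R 4.3.3 with edgeR 4.0.16. Scaling was by TMM, low genes were removed by filterByExpr (minimum count 10), and the robust quasi-likelihood fit was followed by glmQLFTest, two-sided, with Benjamini-Hochberg adjustment and a threshold of 0.05. CPM are TMM-normalised. The SE is the size of the log2 fold change over the root of its F, and intervals are at 95%. The method was tested on simulated data. Any 2 libraries of a group differed by 1.20 to 1.38 times counting noise (chi-square over degrees of freedom, genes with at least 20 summed counts), so none was taken for a copy. DESeq2 1.42.0 and limma-voom (limma 3.58.1) were tried in place of edgeR. Within edgeR, median-of-ratios scaling, no filter, glmTreat at 1.2-fold, a replicate block, thinning to equal depth and omission of each library were tried. Values in every library are given for called genes of at least 1 CPM and a log2 fold change of at least 0.5 in size, for the most abundant gene of each role, and for a fixed panel (Tgfb1, Tgfbr1, Tgfbr2, Bmpr1a, Smad2, Smad3, Smad4, Smad7, Id1 to Id3), and also, outside that rule, for Tgfb3 and for Ltbp2 and Itgb8 as counts. Of other pathway genes, up to 3 called genes per list with the smallest p are named. Genes, lists and rule were chosen with earlier results of these data known. Promoters of Smad2, Smad4 and Smad7 were not used. Nog and Id4 were not analysed here. Gene lengths came from Gencode M21 for 41 genes. Figures used matplotlib 3.10.9.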

Additional observations from a re-analysis of the deposited data

How the results depend on the processing

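Of the 26 pathway genes called, 21 kept their call under all alternatives apart from glmTreat against a 1.2-fold change, and 10 kept it under that one too. Ltbp2 is among the 21 and the 10. Its call carries little weight, since it passed the count filter through the vehicle libraries alone. Against that fold, 8 of these genes were called higher and 2 lower (6.46% and 8.72% of all tested genes), and of the other pathway genes 13 were higher and 6 lower. The 13 include Itgb8, which passed the count filter through the palmitate libraries alone. When single libraries were left out, the count of genes called higher ranged from 16 to 19 and lower from 6 to 7, and for the other pathway genes from 24 to 27 and from 11 to 15. Same-numbered libraries did not deviate together (correlations of -0.0045 to 0.0085), and not every library correlated best with its own number. Libraries of a group differed by little more than counting noise, so these correlations cannot tell whether same-numbered libraries were handled together. With the replicate number as a block, 19 were higher and 7 lower, and 27 and 16 of the other pathway genes. In the main fit 27.4% of all tested genes were called higher and 25.4% lower. Such shares were not worked out for the fits without single libraries or with the block, so their counts have no background here. Signs changed only for genes near 0 that were not called. Ltbp3 had a log2 fold change of -0.0029 with median-of-ratios size factors and of -0.0046 to 0.013 without single libraries. Acvr2a had 0.0050 with no count filter, 0.00027 with DESeq2, 0.011 after thinning and -0.039 to 0.028 without single libraries, and Ski had -0.055 to 0.013 without single libraries, the last without vehicle replicate 2. The cause was not tested. Depth limits what can be said of Tgfb2, Inhbb, Id2 and Ltbp2, whose counts were low, and of the 4 genes under the count filter.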
